A study of Mus musculus with 15 samples.

Results

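The genes described here are 33 genes of protein folding in the endoplasmic reticulum (ER) and of the integrated stress response, found by their Ensembl identifiers among the 43432 gene rows of the count tables. They comprise 19 ER genes (14 chaperones and folding enzymes, 4 genes of ER quality control and degradation, and the transcription factor gene Xbp1) and 14 genes of the integrated stress response (7 regulators and 7 genes of amino acid and folate metabolism that the factor Atf4 is known to activate). All 33 were found and all passed the filter on low counts in both comparisons. They were measured by sequencing of polyadenylated RNA in 15 mouse lines of CD1 background that the series describes as iXEN, induced cells of the extraembryonic endoderm. Such cells resemble primitive endoderm in culture and secrete large amounts of basement membrane. In the 5 retroviral OSKM lines retroviruses carried Oct4, Sox2, Klf4 and Myc, and every line grew from 1 Oct4-EGFP-positive cell, so each is 1 clone. The 5 lentiviral SKM lines received Sox2, Klf4 and Myc, 3 factors, by lentivirus. The 5 lentiviral OSKM lines received the 4 factors by lentivirus. The series description gives embryonic fibroblasts as the starting cells and says that the lentiviral lines are past passage 11 and come from distinct fibroblast preparations. It calls the lentiviral lines iXEN, whereas their titles begin with IPS, and embryonic stem cells are mentioned under treatment for the retroviral lines and for lentiviral OSKM replicate 1. No label tells whether the retroviral clones share a preparation, and p-values in their comparison rest on clone-to-clone spread, which may be technical.

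When unfolded proteins build up in the ER, the membrane sensors Ire1, Perk and Atf6 are activated. Ire1 splices the Xbp1 transcript, and spliced Xbp1 and cleaved Atf6 enter the nucleus and activate chaperone and degradation genes through ER stress elements in their promoters. Perk and its sister kinases, which sense lack of amino acids, lack of haem or double-stranded RNA, phosphorylate the initiation factor eIF2alpha, which slows translation in general and favours translation of Atf4. Atf4 and its partner Ddit3 (CHOP) then activate genes of amino acid synthesis and transport, and of redox balance, through amino acid response elements. The integrated stress response can therefore run without ER stress, and secretory cells keep a high level of ER chaperones without it. Counts per gene measure RNA: they show neither the splicing of Xbp1 nor the translation of Atf4.

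The promoters are shown because some of them hold the motifs through which the 2 groups of genes are known to be regulated. Windows from 250 bases before to 50 bases after the annotated start were taken from RefSeq (GRCm38.p6) for 31 of the 33 genes, 33 windows in all, with none for Hyou1 and Manf. Each was searched on both strands for the ER stress element ERSE (CCAAT and CCACG with 9 bases of any kind between them), for ERSE-II (ATTGG and CCACG with 1 base of any kind between them) and for the C/EBP-ATF response element CARE (TGATGNAA, where N is any base). ERSE and ERSE-II are built from the same CCAAT and CCACG blocks, the first of them reversed in ERSE-II. No match in these genes overlapped a match to another motif. The chaperone BiP (Hspa5), the ER membrane protein Herpud1 and the glutathione-degrading enzyme Chac1 are shown in full, with matches in capitals. Hspa5 (chr2:34771840-34772139, plus strand) held an ERSE 65 bases before its start. Chac1 (chr2:119350992-119351291, plus strand) held a CARE on the opposite strand. Herpud1 (chr8:94386179-94386478, plus strand) held a CARE on the opposite strand 112 bases before its start and an ERSE-II 52 bases before it.
Hspa5: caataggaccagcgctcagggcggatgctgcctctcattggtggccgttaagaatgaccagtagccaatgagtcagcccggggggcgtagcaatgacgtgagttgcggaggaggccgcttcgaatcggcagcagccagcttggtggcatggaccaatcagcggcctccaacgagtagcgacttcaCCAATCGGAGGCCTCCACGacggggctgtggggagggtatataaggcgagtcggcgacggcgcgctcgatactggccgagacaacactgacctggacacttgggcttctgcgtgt
Herpud1: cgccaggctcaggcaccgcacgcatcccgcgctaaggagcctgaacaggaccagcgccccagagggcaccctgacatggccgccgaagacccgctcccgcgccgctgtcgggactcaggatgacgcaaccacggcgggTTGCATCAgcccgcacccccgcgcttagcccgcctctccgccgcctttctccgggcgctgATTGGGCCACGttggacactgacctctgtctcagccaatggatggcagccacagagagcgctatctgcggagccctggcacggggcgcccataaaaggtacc
Chac1: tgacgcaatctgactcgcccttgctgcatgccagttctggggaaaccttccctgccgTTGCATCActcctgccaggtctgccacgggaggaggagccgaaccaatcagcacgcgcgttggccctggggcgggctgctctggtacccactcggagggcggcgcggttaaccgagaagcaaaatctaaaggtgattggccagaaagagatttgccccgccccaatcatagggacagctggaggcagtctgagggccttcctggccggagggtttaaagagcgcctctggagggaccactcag

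Shorter windows, with 10 bases to either side of the motif, show how alike the matches are. The first 3 are ERSE matches of ER chaperone and ubiquitin ligase genes: Canx (chr11:50325790-50325828, minus strand), Pdia6 (chr12:17266481-17266519, plus strand) and Syvn1 (chr19:6046522-6046560, plus strand). The others are CARE matches of stress response genes: Asns (chr6:7693215-7693242, minus strand), Atf3 (chr1:191183426-191183453, minus strand) and Trib3 (chr2:152344029-152344056, minus strand). Atf3, Chac1 and Herpud1 carried the same 8 bases. The window of Trib3 lay just after its annotated start.
Canx: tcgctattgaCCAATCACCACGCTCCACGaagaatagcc
Pdia6: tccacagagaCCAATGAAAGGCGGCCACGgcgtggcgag
Syvn1: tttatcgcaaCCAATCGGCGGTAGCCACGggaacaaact
Asns: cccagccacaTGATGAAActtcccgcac
Atf3: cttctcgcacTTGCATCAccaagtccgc
Trib3: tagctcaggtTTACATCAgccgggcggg

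ERSE was found in 8 of the 17 ER windows (47.1%): those of Calr, Canx, Creld2, Dnajc3, Hsp90b1, Hspa5, Pdia6 and Syvn1. It was found in 0 of the 16 stress response windows, and in 0.119% of all 32851 RefSeq promoter windows of this length. ERSE-II was in the windows of Herpud1 and Dnajb11, and in 0.0365% of all windows. CARE was found in 5 of the 16 stress response windows (31.2%), those of Asns, Atf3, Chac1, Slc7a11 and Trib3, and in 3.97% of all windows. Among the 17 ER windows CARE was in that of Herpud1. These matches describe the letters of the windows. No binding was measured, and a window without a match says only that these letters are not in it.

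The ER genes were more abundant per length than the stress response genes and varied less between lines. Levels are CPM, counts scaled to library size, and comparisons between genes use CPM per kilobase of exon. Over the 15 lines the mean level per kilobase was 1174 for the calcium-binding chaperone calreticulin (Calr), 581 for the disulphide isomerase Pdia3, 434 for Hspa5, 290.4 for the disulphide isomerase Pdia6 and 269 for the Hsp90 family chaperone Hsp90b1. The highest stress response genes were Atf4 at 206, the asparagine synthetase Asns at 119 and the serine synthesis enzyme Phgdh at 105. The median over genes was 77.4 for the ER and 40.9 for the stress response genes, and the lowest of each were Dnajb9, a BiP co-chaperone, at 10.5 and the cystine transporter Slc7a11 at 0.358. The SD of log2(CPM + 0.5) over the 15 lines had a median of 0.50 for the 19 ER genes and of 0.72 for the 14 stress response genes. It was above the median of all 16657 genes kept in 14 of the 19 ER genes and in 14 of the 14 stress response genes. All ER genes were at 19.1 CPM or more in every line, and 13 of the 14 stress response genes were above 1 CPM in every line, the exception being Slc7a11.

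Libraries held 34916933 to 46995817 counts in genes in the retroviral OSKM, 60998360 to 75376275 in the lentiviral SKM and 64348250 to 73405134 in the lentiviral OSKM lines. XEN and primitive endoderm markers were high in every line: their 7 genes summed to 1602 to 4434 CPM in retroviral OSKM, 3544 to 4171 CPM in lentiviral SKM and 2769 to 4447 CPM in lentiviral OSKM lines. The 7 pluripotency markers summed to at most 31.4 CPM in any line, and 3 of them were under 1 CPM in every line. Some libraries stood apart. Retroviral OSKM replicate 3 had the lowest sum of XEN markers (1602 CPM), with Foxa2 at 2.56 CPM against 119.7 CPM or more elsewhere. Summed fibroblast markers reached 478 CPM in retroviral OSKM replicate 1, 387 CPM in lentiviral SKM replicate 1 and 782 CPM for replicate 5 of lentiviral OSKM, and lay at 43.4 to 197 CPM in the others. The type IV collagen gene Col4a1 had 53.7 CPM in 1 retroviral line, OSKM replicate 1, 62.6 CPM in lentiviral OSKM replicate 5, and 5019 CPM or more in the other lines. In bulk RNA fewer cells of a type and less RNA per cell cannot be told apart, so these values do not say whether the lines are mixtures.

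**Figure D1:**
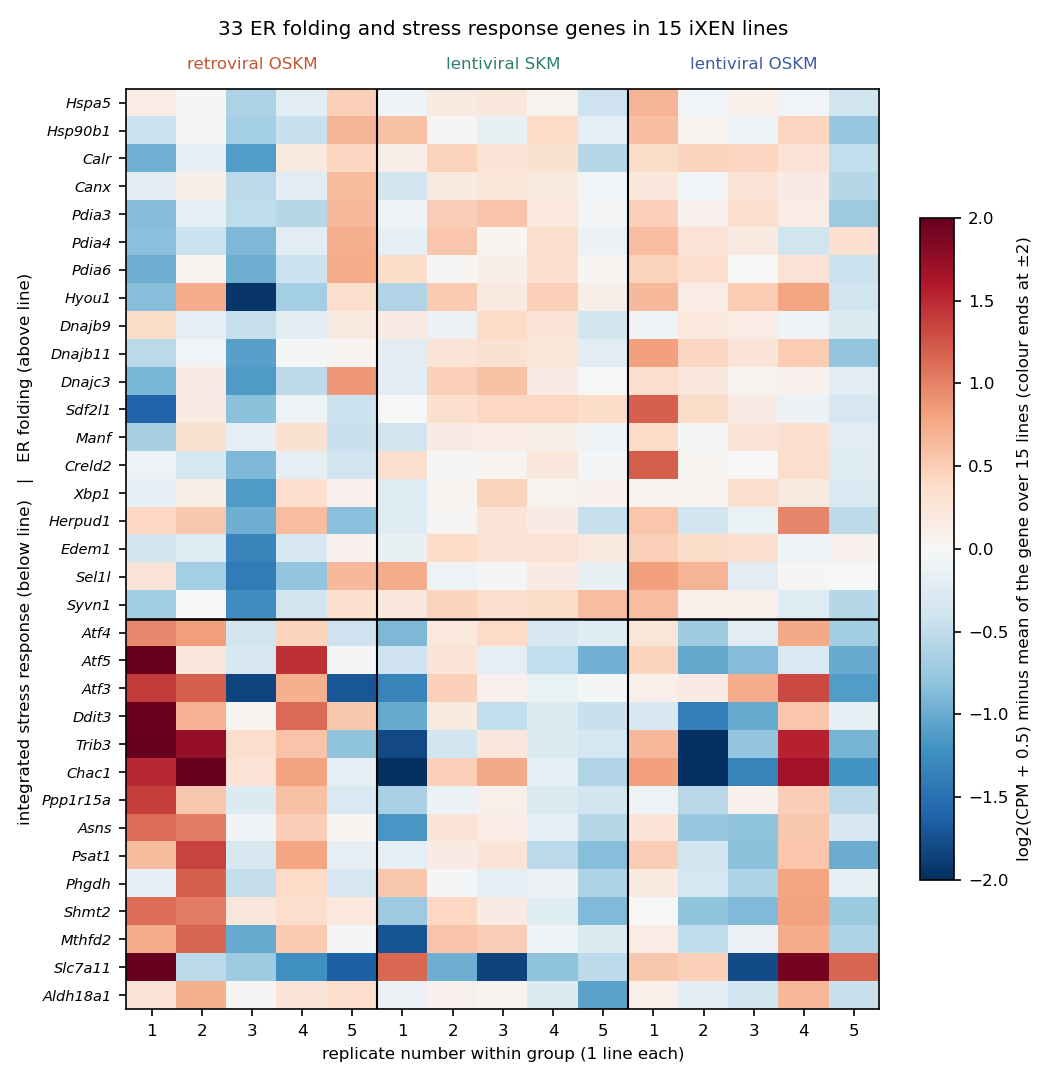
Heat map of the 33 genes (rows) in the 15 lines (columns, retroviral OSKM, lentiviral SKM and lentiviral OSKM replicates 1 to 5). Colour gives log2(CPM + 0.5) minus the mean of the gene over the lines. The stress response rows are reddest in retroviral OSKM replicates 1 and 2 and in lentiviral OSKM replicate 4, and the ER rows are bluest in retroviral OSKM replicate 3.

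The general ER chaperones ranged 2.31-fold (the lectin chaperone Canx) to 2.98-fold (Calr) between the lowest and the highest line among Hspa5, Hsp90b1, Calr, Canx and Pdia3. In what follows the 5 values of a group are replicates 1 to 5. Hspa5 (ENSMUSG00000026864, chr2:34771970-34777547, GRCm38), the main Hsp70 chaperone of the ER, was at 1983, 1749.6, 1158, 1522 and 2496 CPM in retroviral OSKM, 1706, 2036, 2088, 1888 and 1337 CPM in lentiviral SKM and 2861, 1727, 1921, 1721 and 1354 CPM in lentiviral OSKM lines. Calr (ENSMUSG00000003814, chr8:84841850-84846934) was at 1636, 2861, 1476, 3607 and 4323 CPM in retroviral OSKM, 3496, 4395, 3870.3, 3939.9 and 2148 CPM in lentiviral SKM and 4143, 4374, 4288, 3884 and 2286 CPM in lentiviral OSKM lines. The 3 groups overlapped for both genes, and the lowest Calr values were those of retroviral OSKM replicates 1 and 3, lentiviral SKM replicate 5 and lentiviral OSKM replicate 5. Hsp90b1, which shares exon bases with genes on both strands, was at 764, 1003, 648, 761 and 1664 CPM in retroviral OSKM, 1553, 1047, 928, 1357 and 909 CPM in lentiviral SKM and 1576, 1079.7, 963, 1395 and 611 CPM in lentiviral OSKM lines. Pdia3, which works with Calr and Canx on glycoproteins, was at 950.0, 1528, 1221, 1169.8 and 2715 CPM in retroviral OSKM, 1646, 2435, 2575, 2002 and 1716 CPM in lentiviral SKM and 2405, 1840.4, 2197, 1914 and 1048 CPM in lentiviral OSKM lines. Retroviral OSKM replicate 5 was the highest of the 15 lines for Hsp90b1, Canx, Pdia3, Pdia4, Pdia6 and the co-chaperone Dnajc3.

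The ER genes that varied most were Hyou1, the nucleotide exchange factor of BiP, and Sdf2l1, a partner of BiP and its co-chaperones. Hyou1 was at 278, 843, 131, 313 and 644 CPM in retroviral OSKM, 330.1, 723, 569.5, 698 and 548 CPM in lentiviral SKM and 785, 561, 718, 870.1 and 382 CPM in lentiviral OSKM lines, a 6.67-fold range set by the low value of retroviral OSKM replicate 3. Sdf2l1 was at 24.2, 83.1, 41.8, 68.7 and 54.7 CPM in retroviral OSKM, 74.0, 92.4, 99.0, 98.5 and 96.1 CPM in lentiviral SKM and 170.2, 95.8, 82.9, 67.9 and 58.5 CPM in lentiviral OSKM lines, a 7.04-fold range with the low end in retroviral OSKM replicate 1 and the high end in lentiviral OSKM replicate 1. Dnajb9 varied least, with 34.2, 23.0, 19.1, 22.6 and 30.0 CPM in retroviral OSKM, 29.8, 24.4, 35.0, 32.1 and 20.5 CPM in lentiviral SKM and 25.2, 30.8, 29.3, 24.9 and 21.6 CPM in lentiviral OSKM lines. Its range was 1.83-fold, and the groups overlapped throughout. The other folding genes, Pdia4, Pdia6, Dnajb11, Dnajc3, the secreted factor gene Manf, which shares exon bases with its neighbours, and Creld2, ranged from 2.08-fold (Manf) to 4.32-fold (Creld2).

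Among the quality control genes, Xbp1, the factor that Ire1 activates, was at 192, 232, 97.5, 271 and 228 CPM in retroviral OSKM, 179, 224, 291, 226 and 228 CPM in lentiviral SKM and 225, 221, 275, 243 and 174 CPM in lentiviral OSKM lines. Only retroviral OSKM replicate 3 lay under 174 CPM. Sel1l, the adaptor of the Hrd1 ubiquitin ligase complex, was at 250.4, 129.6, 78.5, 121 and 329 CPM in retroviral OSKM, 348, 193, 206, 235 and 189 CPM in lentiviral SKM and 369, 334, 181, 211 and 209.6 CPM in lentiviral OSKM lines, and the ligase itself, Syvn1, ranged from 56.3 to 206 CPM. The mannosidase-like gene Edem1 ranged from 75.9 to 265 CPM. Herpud1, which recruits that ligase to substrates (ENSMUSG00000031770, chr8:94386438-94395377), was at 169, 185, 64.5, 196 and 71.0 CPM in retroviral OSKM, 106, 128, 152, 142 and 92.4 CPM in lentiviral SKM and 186, 97.8, 115, 251 and 88.1 CPM in lentiviral OSKM lines. Its highest line was lentiviral OSKM replicate 4, and retroviral OSKM replicate 5, the highest of its group in 12 of the 19 ER genes, had the next to lowest Herpud1 of all lines.

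Among the regulators of the integrated stress response, single lines stood out. Atf4 (ENSMUSG00000042406, chr15:80255184-80257541) was at 872, 803, 347, 609 and 337 CPM in retroviral OSKM, 239.5, 517, 592, 357 and 380.2 CPM in lentiviral SKM and 532, 273, 387, 759.8 and 277 CPM in lentiviral OSKM lines. Ddit3, which drives cell death programmes under lasting stress, was at 190.0, 78.9, 50.5, 108 and 70.7 CPM in retroviral OSKM, 24.0, 54.7, 34.4, 40.0 and 35.6 CPM in lentiviral SKM and 39.0, 18.4, 23.8, 71.3 and 42.1 CPM in lentiviral OSKM lines. Reads of Ddit3 cannot be fully told from those of Mars and another gene model that share its exon bases. The pseudokinase gene Trib3, a Ddit3 and Atf4 target that feeds back on them, was at 238, 145, 54.1, 63.4 and 24.0 CPM in retroviral OSKM, 11.7, 32.4, 49.4, 34.8 and 33.1 CPM in lentiviral SKM and 66.5, 8.44, 24.5, 124 and 22.0 CPM in lentiviral OSKM lines. Retroviral OSKM replicates 1 and 2 and lentiviral OSKM replicate 4 were the 3 highest lines for Atf4, Trib3 and Chac1, in 2 different groups.

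Chac1 was at 81.6, 119, 34.9, 50.3 and 25.2 CPM in retroviral OSKM, 5.04, 39.9, 48.4, 24.8 and 18.6 CPM in lentiviral SKM and 50.6, 4.63, 11.2, 92.5 and 12.2 CPM in lentiviral OSKM lines, a 25.7-fold range. The lentiviral OSKM group alone spanned 4.63 to 92.5 CPM. Atf3, an early response factor, was at 158, 136, 16.2, 97.2 and 17.7 CPM in retroviral OSKM, 23.1, 82.7, 63.3, 54.3 and 58.3 CPM in lentiviral SKM and 63.7, 66.4, 99.3, 149.8 and 27.0 CPM in lentiviral OSKM lines. Atf5, a factor whose translation is controlled like that of Atf4 and whose exons overlap Nup62 and Il4i1 on the other strand, was at 339, 42.3, 28.7, 99.6 and 35.3 CPM in retroviral OSKM, 26.9, 42.9, 31.5, 25.4 and 18.1 CPM in lentiviral SKM and 49.1, 17.5, 19.6, 29.0 and 17.7 CPM in lentiviral OSKM lines. Ppp1r15a, the subunit that directs the phosphatase back to eIF2alpha, ranged from 56.3 to 231 CPM. For Atf5, Ddit3 and Trib3 the highest line was retroviral OSKM replicate 1, and the next highest Atf5 was 99.6 CPM in retroviral OSKM replicate 4.

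**Figure D2:**
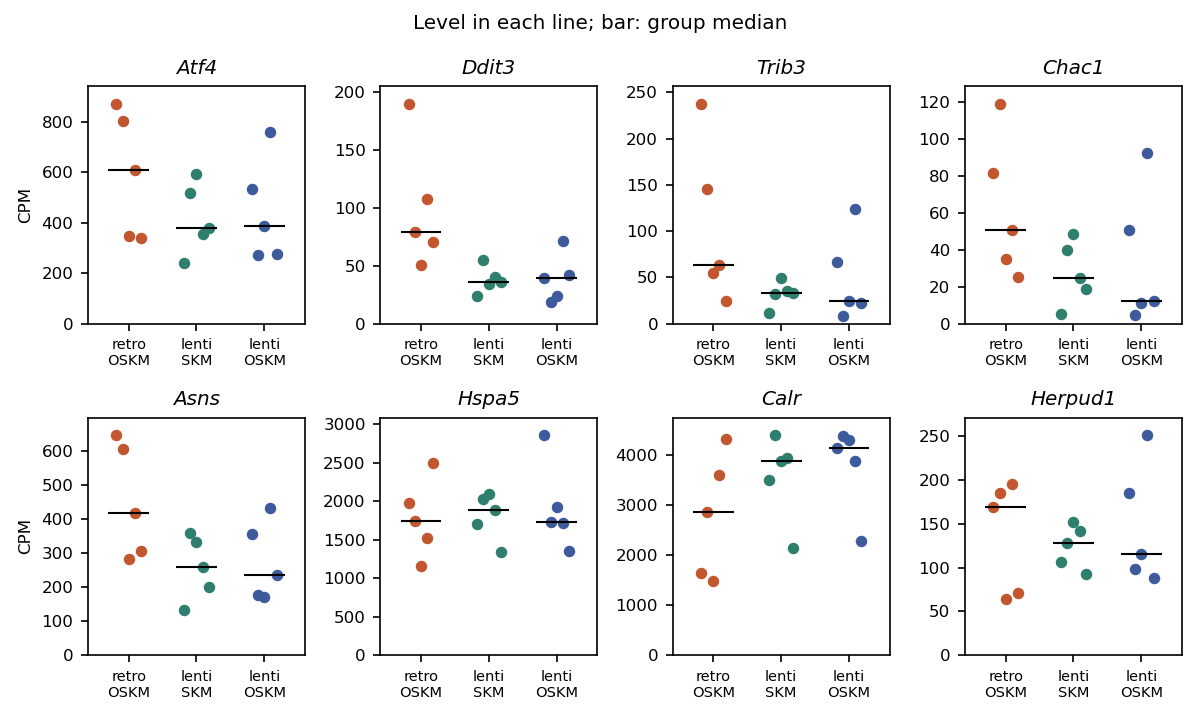
CPM of 8 genes in each of the 15 lines, by group, with the group median as a bar. For Ddit3 the 5 retroviral OSKM lines lie at 50.5 CPM or more, where 1 of 5 lentiviral OSKM lines, at 71.3 CPM, lies above that value, and for Chac1 and Trib3 the 3 groups overlap.

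The 7 metabolic targets had smaller ranges, with a median of 4.92-fold between the highest and the lowest line, against 10.3-fold for the 7 regulators. Asns (ENSMUSG00000029752, chr6:7675169-7693254) was at 646, 604, 281, 416 and 306 CPM in retroviral OSKM, 131, 357, 330.4, 258 and 198 CPM in lentiviral SKM and 356, 176, 169.6, 432 and 236 CPM in lentiviral OSKM lines. Psat1, which encodes the aminotransferase of serine synthesis, was at 566, 929, 291, 631 and 325 CPM in retroviral OSKM, 319, 407, 433, 251 and 200.03 CPM in lentiviral SKM and 512, 278, 205, 531 and 182 CPM in lentiviral OSKM lines. Phgdh, the first enzyme of that pathway, was at 218, 560.3, 175, 321 and 194 CPM in retroviral OSKM, 357, 239, 214, 225 and 159 CPM in lentiviral SKM and 278, 193, 159.5, 424 and 217 CPM in lentiviral OSKM lines. Mthfd2, a mitochondrial folate enzyme, was at 359, 482, 107, 308 and 210.0 CPM in retroviral OSKM, 64.6, 320.0, 302, 204 and 176 CPM in lentiviral SKM and 237, 150.3, 199, 359 and 140.3 CPM in lentiviral OSKM lines. For each of these 4 genes the highest line was retroviral OSKM replicate 1 or 2. The annotation holds 8 processed pseudogenes of Phgdh of 95% identity or more, so some of its reads may be assigned elsewhere. Over all libraries the pseudogenes Gm7901 and Gm13337 had 10862 and 1459 counts, against 222128 for Phgdh. Shmt2, the mitochondrial serine hydroxymethyltransferase gene, ranged from 93.3 to 375 CPM, and Aldh18a1, of proline synthesis, from 87.8 to 301 CPM.

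Slc7a11, the cystine transporter of glutathione synthesis, was the exception. It was at 52.3, 0.832, 0.670, 0.312 and 0.116 CPM in retroviral OSKM, 3.73, 0.473, 0.0303, 0.595 and 0.824 CPM in lentiviral SKM and 2.28, 2.17, 0.0537, 6.72 and 3.76 CPM in lentiviral OSKM lines. Retroviral OSKM replicate 1 was far above the next line, lentiviral OSKM replicate 4, and some values rest on few reads, as 3 counts correspond to 0.0386 to 0.0851 CPM. Its annotated transcript shares 373 bases at 95.4% to 96.2% identity with the tubulin genes Tuba1a, Tuba1b and Tuba1c, and Slc7a11 had 3424 counts in all 15 libraries against 347941 for Tuba1b, so its low values are uncertain.

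To compare the 2 groups of genes line by line, the median log2(CPM + 0.5) over each group was taken, as a description with no test. The ER median averaged 7.76 ± 0.53 (SD, n = 5) in retroviral OSKM, 7.97 ± 0.17 in lentiviral SKM and 8.13 ± 0.34 in lentiviral OSKM lines. The stress response median averaged 7.27 ± 0.59, 6.59 ± 0.49 and 6.78 ± 0.57 in the same order of groups. The ER median minus the stress response median was 0.49 ± 0.65 in retroviral OSKM, 1.38 ± 0.35 in lentiviral SKM and 1.35 ± 0.66 in lentiviral OSKM lines. By line this difference was −0.29, 0.15, 0.49, 0.61 and 1.48 in retroviral OSKM replicates 1 to 5, 1.92, 1.10, 1.13, 1.19 and 1.56 in lentiviral SKM and 1.62, 2.04, 1.50, 0.26 and 1.34 in lentiviral OSKM. The groups overlapped: retroviral OSKM replicate 5 lay with the lentiviral lines, and lentiviral OSKM replicate 4 lay among the retroviral ones. Retroviral OSKM replicate 1 was the only line in which the stress response median was above the ER median.

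**Figure D3:**
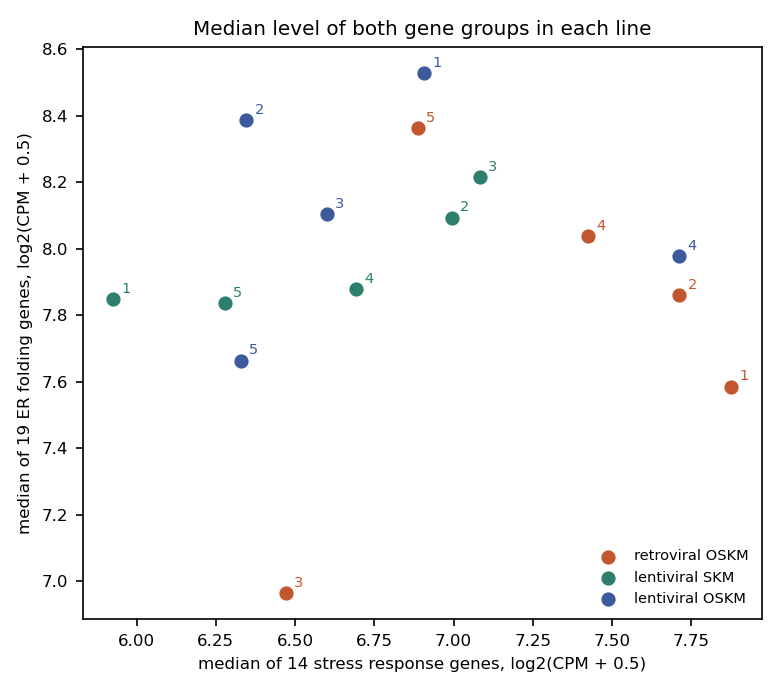
Median log2(CPM + 0.5) of the 19 ER genes (vertical axis) against that of the 14 stress response genes (horizontal axis), 1 point per line, labelled with its replicate number and coloured by group. Retroviral OSKM replicate 3 lies lowest on the ER axis at 6.96, and retroviral OSKM replicates 1 and 2 and lentiviral OSKM replicate 4 lie at 7.71 or more on the stress response axis with ER medians between 7.59 and 7.98.

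Single lines took most of the extreme values. Retroviral OSKM replicate 1 was the highest of the 15 lines in 9 of the 14 stress response genes, and retroviral OSKM replicate 2 in the other 5. Lentiviral OSKM replicate 4 was the highest of the 10 lentiviral lines in 13 of the 14, all but Atf5. Retroviral OSKM replicate 3 was the lowest of the 15 lines in 13 of the 19 ER genes. It also had the lowest summed basement membrane genes, at 20463 CPM, where the other lines held 42976 to 123597 CPM, and the lowest summed XEN markers, as given above. Lentiviral OSKM replicate 1 was the highest of the 15 lines in 7 of the 19 ER genes and lentiviral OSKM replicate 5 the lowest of its group in 16. Lentiviral OSKM replicate 5 was also the line with the highest fibroblast markers and with Col4a1 at 62.6 CPM. These counts are not set beside the same counts over all genes. They therefore do not tell a trait of these genes from one of the whole library. What these differences between lines owe to the mixture of cells was not tested.

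Across lines, correlations were mostly positive within each group of genes and centred near 0 between the groups, except within the lentiviral lines. Spearman's rho over the 15 lines had a median of 0.48 over the 171 pairs within the ER genes, of 0.71 over the 91 pairs within the stress response genes and of −0.02 over the 266 pairs between the groups. Over all pairs of the 16657 genes kept it was 0. Within the 10 lentiviral lines the medians were 0.39, 0.64 and 0.28, and over 13 lines without retroviral OSKM replicates 1 and 3 they were 0.36, 0.69 and 0.05. These are descriptions: the pairs share their libraries and genes, and are not independent. Slc7a11 followed neither group, with median rho of −0.28 with the ER genes and 0.15 with the other stress response genes. Without it, all 78 stress response pairs were positive, from 0.36 to 0.95.

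**Figure D4:**
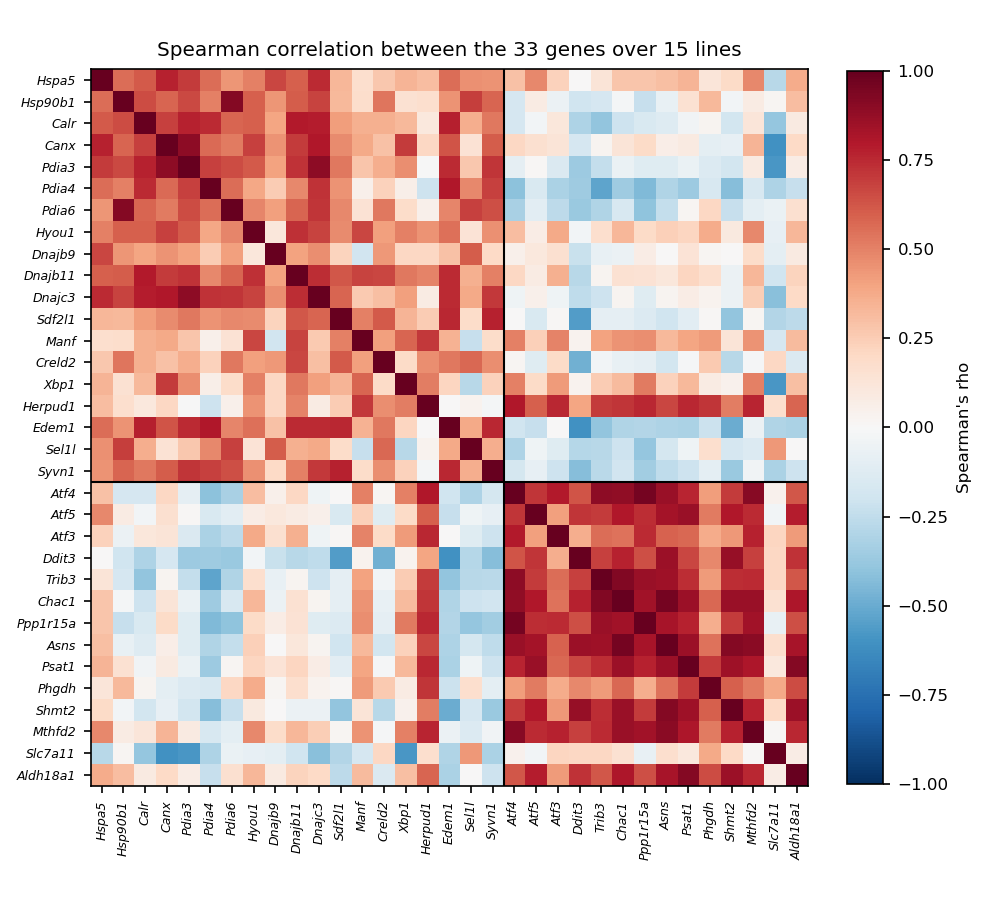
Spearman's rho between the 33 genes over the 15 lines, ER genes first and stress response genes after them, separated by black lines. The block of 13 stress response genes other than Slc7a11 is red throughout, the block between the groups is pale, and the row of Herpud1 is red with the stress response genes.

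The median rho of Herpud1 was 0.71 with the 14 stress response genes and 0.19 with the other 18 ER genes over the 15 lines, 0.78 and 0.58 within the 10 lentiviral lines, and 0.70 and 0.01 over the 13 lines without retroviral OSKM replicates 1 and 3. The gene it followed most closely was Atf4, with rho of 0.80, then Mthfd2 with 0.76. Over the 15 lines Herpud1 and Manf, of the 19 ER genes, had a higher median rho with the stress response genes than with the other ER genes, 0.40 and 0.31 in the case of Manf. Which ER genes did so varied with the lines used. Within the lentiviral lines Hyou1 (0.69 and 0.48), Dnajb11 (0.56 and 0.53) and Creld2 (0.35 and 0.33) did so too, and over the 13 lines Hyou1 (0.48 and 0.35) and Xbp1 (0.41 and 0.08) did. Herpud1 is also the ER gene whose promoter, printed above, held a CARE beside an ERSE-II, but a part of these motifs in its correlations was not tested. Among the stress response genes with CARE in their windows, the median rho with the others was 0.85 for Asns and 0.84 for Chac1. It was 0.74 for Trib3, 0.54 for Atf3 and 0.15 for Slc7a11, whose low values are uncertain. In the stress response genes whose windows held none, it ran from 0.52 (Phgdh) to 0.77 (Mthfd2 and Shmt2), with 0.76 for Atf4. For the other ER genes over the 15 lines the median rho with the ER group ran from 0.33 (Xbp1) to 0.69 (Dnajc3), and with the stress response genes from −0.34 (Pdia4) to 0.28 (Hspa5 and Xbp1).

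Of 10 pairs chosen by role, 5 passed over the 15 lines after Benjamini-Hochberg adjustment over the 10 (two-sided permutation test of Pearson's r, 100000 resamples). Atf4 and its target Asns had r = 0.90 (permutation p = 1e-05, the smallest the resamples can give, adjusted p = 0.0001) and rho = 0.86 (permutation p = 7e-05, adjusted p = 0.0005). Without the 2 lines farthest from the median of Atf4, retroviral OSKM replicates 1 and 2, r was 0.83. Within the 10 lentiviral lines r was 0.88 (permutation adjusted p = 0.0105) and rho 0.79 (permutation adjusted p = 0.0886). Asns and Psat1 had r = 0.81 (permutation p = 0.00033, adjusted p = 0.0011) and rho = 0.85 (permutation p = 0.0001, adjusted p = 0.0005), with r = 0.92 without lentiviral SKM replicate 1 and retroviral OSKM replicate 1. Within the lentiviral lines their r was 0.69 and did not pass (permutation adjusted p = 0.104). Ddit3 and Trib3 had r = 0.81 (permutation p = 0.00031, adjusted p = 0.0011) and rho = 0.68 (permutation p = 0.0062, adjusted p = 0.0207), with r = 0.75 without retroviral OSKM replicates 1 and 4. Within the lentiviral lines r was 0.81 (permutation adjusted p = 0.0241), but 0.48 without lentiviral OSKM replicates 2 and 4. Within the lentiviral set the relation of Ddit3 with Trib3 rested on those 2 lines.

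Within the ER, Hspa5 and Hsp90b1 had r = 0.68 (permutation p = 0.0051, adjusted p = 0.0127) and rho = 0.56, which did not pass (permutation p = 0.033, adjusted p = 0.066). Within the 10 lentiviral lines r was 0.57 and did not pass (permutation adjusted p = 0.167), and without the 2 lines farthest from the Hspa5 median, lentiviral OSKM replicate 1 and retroviral OSKM replicate 3, it was 0.52. Hspa5 and the laminin chain gene Lama1, a main secretory cargo, had r = 0.62 (permutation p = 0.0138, adjusted p = 0.0276) and rho = 0.35, which did not pass (permutation p = 0.201, adjusted p = 0.334). That relation rested on the same 2 lines, as r was 0.17 without them and 0.37 within the lentiviral lines. Lama1 was at 9641, 10496, 1796, 10965 and 20139 CPM in retroviral OSKM, 23574, 14035, 12318, 10182 and 11889 CPM in lentiviral SKM and 24226, 17766, 12401, 18696 and 13198 CPM in lentiviral OSKM lines. The other pairs did not pass: Hspa5 had r = 0.34 with Herpud1, 0.35 with Col4a1, 0.23 with Asns and 0.05 with Ddit3, and Xbp1 had 0.43 with Dnajb9 (permutation adjusted p from 0.164 to 0.871). Col4a1 was at 53.7, 11268, 5019, 5328 and 32326 CPM in retroviral OSKM, 15996, 12610.3, 23244, 24882 and 6709 CPM in lentiviral SKM and 20703, 11172, 10594, 14273 and 62.6 CPM in lentiviral OSKM lines. The r of Hspa5 with Col4a1 depended on which lines were left out, a choice made after the data were seen. It was 0.62 without retroviral OSKM replicates 1 and 3 (permutation adjusted p = 0.0481), and 0.21 without lentiviral OSKM replicate 5 and lentiviral SKM replicate 1 (permutation adjusted p = 0.533).

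Setting lentiviral SKM against lentiviral OSKM lines asks whether lines made without exogenous Oct4 differ in these genes from lines made with it. No difference was detected in any of the 33 genes. With edgeR's quasi-likelihood test and Benjamini-Hochberg adjustment 0 of the 33 were called, against 0% of the 15899 genes tested, and 0 were at an unadjusted p under 0.05, against 4.86% (2.29% higher and 2.57% lower). Groups that did not overlap were found for 0 of the 33, against 0.717% of all genes. DESeq2 called 0 of the 33 and 44 genes in all, and voom called 0. The median log2 fold change was −0.05 over the 19 ER genes and −0.10 over the 14 stress response genes, beside −0.0012 over all genes tested. The ER genes split into 8 above and 11 below 0, and the stress response genes into 1 above (Atf5) and 13 below, where 49.8% of all genes tested were above 0 and 50.2% below.

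The intervals show how large a difference could have been missed. The 95% interval of the log2 fold change excluded a 2-fold change in either direction for 19 of the 19 ER genes, as for 8850 of the 15899 genes tested, and for 10 of the 14 stress response genes. For Hspa5, at 1811 CPM in lentiviral SKM and 1917 CPM in lentiviral OSKM lines on average, it ran from −0.54 to 0.38. For Atf4 it ran from −0.81 to 0.61 and for Ddit3 from −0.81 to 0.72. It was wider for Trib3 (−1.98 to 0.77), Chac1 (−2.05 to 1.39), Atf3 (−1.46 to 0.40) and Slc7a11 (−3.84 to 1.03), so a 2-fold difference was not excluded for these 4. The largest ER value was that of Syvn1, 0.35 (SE 0.20, interval −0.08 to 0.79), with 5 of 5 lentiviral SKM lines above the lentiviral OSKM mean and an edgeR adjusted p of 0.987. The signs of these medians rest on single lines. The stress response median was 0.14 without lentiviral OSKM replicate 4, and the ER median was 0.06 without lentiviral OSKM replicate 1 and 0.01 without lentiviral SKM replicate 5.

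Setting retroviral against lentiviral OSKM lines compares 2 ways of delivering the same 4 factors. Vector, cloning and count table are the same split here and cannot be told apart, and both comparisons share the lentiviral OSKM lines. On average the ER genes were lower and the stress response genes higher in retroviral lines, but no gene passed. With edgeR's quasi-likelihood test 0 of the 33 genes were called at an adjusted p under 0.05, against 0.252% of the 15483 genes tested (0.11% higher and 0.142% lower). The log2 fold change was below 0 for 19 of the 19 ER genes, where 47.7% of all genes tested were below 0, and above 0 for 14 of the 14 stress response genes, where 52.3% were above. With upper quartile scaling 17 of the 19 ER genes were below 0, as with TMM over protein-coding genes only. With TMM or DESeq2's scaling over all types of gene and all lines it was all 19. The median log2 fold change was −0.31 over the ER genes and 0.72 over the stress response genes, beside 0.03 over all genes tested. Genes within each group followed one another across lines (median rho 0.48 and 0.71). Here and in the lists below the genes also share their lines, so such counts are not of independent genes.

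The directions of the ER genes, and the size of the stress response difference, depend on few lines. Without retroviral OSKM replicates 1 and 3, which differ from the others in Col4a1 and fibroblast markers and in XEN markers, the ER median was −0.06, with 12 of 19 below 0. That alternative was chosen after the data were seen. Without replicate 1 alone the ER median was −0.19, without replicate 3 alone −0.20 and without replicate 5 −0.64. Without lentiviral OSKM replicate 1 it was −0.19. The stress response median was 0.64 without both retroviral OSKM replicates, with 13 of 14 above 0, and the exception was Slc7a11. With all lines the median was 0.89 for the 7 regulators and 0.70 for the 7 metabolic targets. Without retroviral OSKM replicate 1 alone these were 0.55 and 0.36, and without replicate 2 alone 0.59 and 0.41. In each of these 2 fits 12 of the 14 stress response genes were above 0. Over all 21 alternatives 11 of the 19 ER genes and 11 of the 14 stress response genes kept their direction.

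At an unadjusted p under 0.05, 4 of the 14 stress response genes were higher, where 7.56% of all genes were, and 3 of the 19 ER genes were lower, where 6.89% were. The mean of Atf5 was 109 CPM in the retroviral group and 26.6 CPM in the lentiviral OSKM group, a log2 fold change of 2.08 (SE 0.69, edgeR adjusted p = 0.217), with 5 of 5 lines above the lentiviral mean. It was 0.97 without retroviral OSKM replicate 1, whose Atf5 was at 339 CPM. Ddit3 averaged 99.5 and 38.9 CPM in the same groups, with 1.38 (SE 0.43, edgeR adjusted p = 0.194), 5 of 5 lines above the lentiviral mean and 0.99 without retroviral OSKM replicate 1. DESeq2 called these 2 of the 33 genes (adjusted p = 0.0344 for Atf5 and 0.0439 for Ddit3) and 4.13% of the genes it tested. Over the alternatives the adjusted p ran from 0.0344 to 0.408 for Atf5 and from 0.0439 to 0.371 for Ddit3.

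Asns had a log2 fold change of 0.74 (SE 0.33, edgeR adjusted p = 0.341), and Shmt2 of 0.84 (SE 0.36, edgeR adjusted p = 0.321), with 5 of 5 lines above the lentiviral mean for both. On the ER side the mean of Sdf2l1 was 54.5 CPM in the retroviral group and 95.1 CPM in the lentiviral OSKM group, a log2 fold change of −0.78 (SE 0.35, edgeR adjusted p = 0.344). Creld2, at −0.71 (SE 0.27, edgeR adjusted p = 0.270), and Edem1, at −0.59 (SE 0.23, edgeR adjusted p = 0.283), lay below the lentiviral mean in 5 of 5 lines, as did Sdf2l1. Without lentiviral OSKM replicate 1, the line with the highest Sdf2l1, the log2 fold change was −0.40 for Creld2 and −0.47 for Sdf2l1, and without retroviral OSKM replicate 3 it was −0.42 for Edem1. No gene of the 33 had groups that did not overlap, where 4.04% of all genes tested did (1.79% higher and 2.25% lower). None of the abundant chaperones passed with edgeR. Hspa5 had −0.08 (interval −0.65 to 0.49), Hsp90b1 −0.20 (−0.88 to 0.49) and Calr −0.43 (−1.14 to 0.28), and the interval of Calr does not exclude a 2-fold lower level. Trib3, at 1.13 (SE 0.75), Chac1, at 0.89 (SE 0.74), and Slc7a11, at 1.91 (SE 1.57), had wide intervals. Without retroviral OSKM replicate 1 Trib3 was at 0.55 and Slc7a11 at −2.61, and Chac1 was at 0.49 without retroviral OSKM replicate 2.

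**Figure D5:**
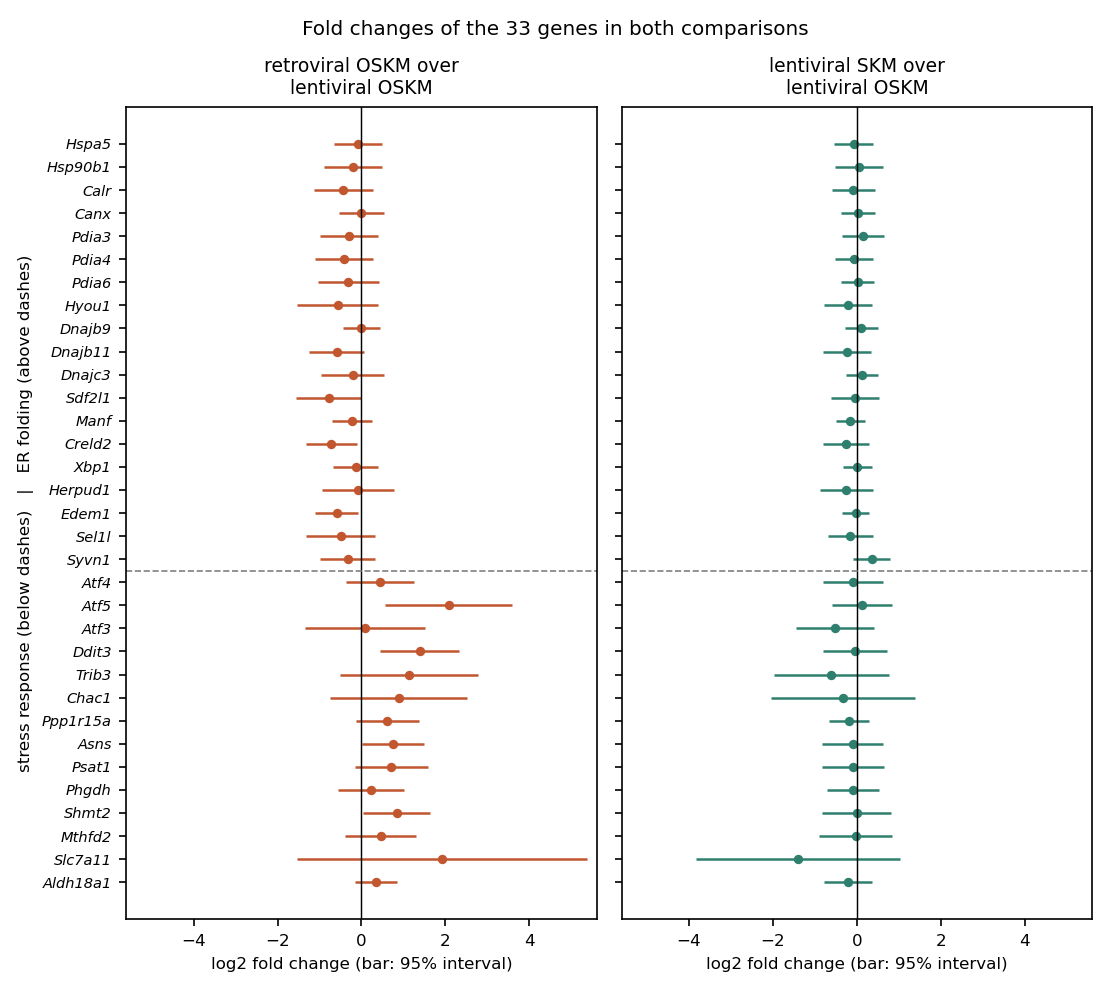
Log2 fold change (point) with its 95% interval (bar) of the 33 genes for retroviral OSKM over lentiviral OSKM lines (left) and lentiviral SKM over lentiviral OSKM lines (right). On the left the points of the ER genes lie at or below 0 and those of the stress response genes above it. On the right 8 of the 19 ER points lie above 0, and 13 of the 14 stress response points lie below it. None of the 33 passed in either comparison.

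Other genes of both pathways gave the setting, from lists chosen by role. In retroviral against lentiviral OSKM lines, 15 of 17 further ER folding and oxidation genes had a log2 fold change below 0 (median −0.52), where 47.7% of all genes tested did. Of them 5 had an unadjusted p under 0.05, where 6.89% of all genes were lower at that p in edgeR's test. The median ran from −0.69 without retroviral OSKM replicate 5 to −0.37 without lentiviral OSKM replicate 1. The most abundant per kilobase were the collagen-associated disulphide isomerase P4hb (−0.38, SE 0.23), Txndc12 (−0.39, SE 0.30) and the glucosidase subunit Ganab (−0.13, SE 0.27). Of 9 genes of the ER stress sensors and their site proteases 8 were below 0 (median −0.52). Mbtps1, the site-1 protease gene that cleaves Atf6, was at 197, 229, 132, 289 and 271 CPM in retroviral OSKM, 358, 457, 438, 413 and 346 CPM in lentiviral SKM and 436, 394, 431, 416 and 304 CPM in lentiviral OSKM lines. Its retroviral values lay below all lentiviral OSKM values (log2 fold change −0.80, SE 0.21, edgeR adjusted p = 0.153, DESeq2 adjusted p = 0.0231). Of 16 genes of ER-associated degradation 10, and of 14 of ER translocation 10, were below 0. None of these genes passed with edgeR.

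Of the secretory cargo, 9 of 9 basement membrane genes were below 0 (median −0.42), where 47.7% of all genes tested were, and 0 of them had an unadjusted p under 0.05 in edgeR's test. With 1 line left out, 7 to 9 of the 9 were below 0, and the median ran from −1.07 without retroviral OSKM replicate 5 to −0.23 without retroviral OSKM replicate 3. Retroviral lines held both ends of the summed cargo, with 20463 CPM in replicate 3 and 123597 CPM in replicate 5. The 9 genes included Sparc at −0.40 (SE 0.28), Col4a1 at −0.06 (SE 1.24) and Lamc1 at −0.75 (SE 0.53). Without lentiviral OSKM replicate 1 Col4a1 was at 0.27, and without retroviral OSKM replicate 3 Lamc1 was at −0.46. Of 14 genes of collagen modification and export 11 were below 0 (median −0.38, and −0.67 to −0.23 with 1 line left out). The collagen chaperone Serpinh1 had −0.53 (SE 0.25), the lysyl hydroxylase Plod2 0.05 (SE 0.29) and the prolyl hydroxylase subunit P4ha1 −0.39 (SE 0.30). Over the 15 lines the median rho of these 2 lists with the 19 ER genes was 0.48 for the cargo and 0.49 for the modification genes, against −0.16 and −0.13 with the stress response genes. Within the lentiviral lines the values were 0.24 and 0.33 with the ER genes, against 0.14 and 0.15 with the stress response genes.

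On the stress response side 13 of 13 aminoacyl-tRNA synthetase and tRNA export genes were above 0 in retroviral against lentiviral OSKM lines (median 0.42), where 52.3% of all genes tested were. Of them 3 had an unadjusted p under 0.05, where 7.56% of all genes were higher at that p in edgeR's test. With 1 line left out 12 or 13 were above 0, with medians from 0.26 (without retroviral OSKM replicate 2) to 0.60 (without lentiviral OSKM replicate 4). Of 18 further amino acid transport and synthesis genes 15 were above 0 (median 0.57), and the median was 0.34 without retroviral OSKM replicate 1. Gars had 0.57 (SE 0.23), Wars 0.04 (SE 0.35) and Nars 0.52 (SE 0.29). The amino acid transporter subunits Slc3a2 and Slc7a5 had 0.33 (SE 0.29) and 0.13 (SE 0.43), and Slc38a2 had 0.10 (SE 0.28). The synthetases followed the 14 stress response genes across all 15 lines with a median rho of 0.71, and within the lentiviral lines with 0.66, against 0.13 and 0.35 with the ER genes. CARE was found in 5 of the 9 synthetase windows matched (55.6%). Among 10 genes upstream or beside Atf4, which include the eIF2alpha kinases other than Perk, 7 had a log2 fold change above 0, where 52.3% of all genes tested did. The list was mixed: at an unadjusted p under 0.05 in edgeR's test 3 were higher and 2 lower. Of all genes 7.56% were higher and 6.89% lower at that p. Sesn2 had 0.34 (SE 0.31), Ppp1r15b −0.08 (SE 0.22) and Ddit4 1.23 (SE 0.45, edgeR adjusted p = 0.253). In retroviral OSKM replicate 3 Ddit4 reached 305 CPM, where the other retroviral lines held 58.6 to 102 CPM, and its log2 fold change was 0.54 without replicate 3. Nupr1, a stress-induced cofactor chosen after its values were seen, had a mean of 115 CPM in the retroviral group and 16.4 CPM in the lentiviral OSKM group with no overlap (log2 fold change 2.85, SE 0.81, edgeR adjusted p = 0.171, and 2.16 without retroviral OSKM replicate 1). None of these genes passed with edgeR. In lentiviral SKM against lentiviral OSKM lines the medians of all the lists named here lay between −0.31 (sensors and proteases) and 0.05 (cargo), with no gene called.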

How the data were processed

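RNA was sequenced from 15 lines, 5 per group. The authors deposited raw counts per gene in 2 tables, 1 with the retroviral and 1 with the lentiviral lines. The submitters' processing notes name HTSeq 0.11.2, HISAT2 2.1.0, Trimmomatic 0.39, SAMtools 1.9 and FastQC 0.11.7. The annotation and strand option of HTSeq were not given in the sources used here. Overlapping genes are therefore named where they matter.

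The 5 summary rows of HTSeq were left out, and genes took 68.77% to 77.04% of all entries. Names, positions and exon lengths came from GENCODE M21 (GRCm38), which matched 42548 of 43432 gene identifiers. CPM used TMM factors, and log2 levels a pseudocount of 0.5. Each comparison was fitted over all genes of its own groups, kept by filterByExpr (minimum count 10), with edgeR 4.0.16 (quasi-likelihood F test, Benjamini-Hochberg, threshold 0.05) in R 4.3.3, after a test on simulated data. Alternatives used DESeq2 1.42.0, limma 3.58.1 (voom), other scalings and filters, and each line left out. Near copies were sought with BLAST+ 2.17.0 (95% identity over 300 bases). Python 3.11.15 with scipy 1.17.1 gave the permutation tests.

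The members and lists were chosen with earlier results of these data known. Values in every line are given for genes that pass, for the 2 most abundant per kilobase and the 2 most variable of each of the 4 member lists, and for the genes of the 10 pairs, and up to 3 of the most abundant genes are named from each other list. Atf5, Creld2, Edem1, Shmt2, Syvn1, Mbtps1 and Nupr1 were named in more detail after their values were seen.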

Additional observations from a re-analysis of the deposited data

Results flagged for a closer look

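In 99 groups of 5 lines (33 genes in 3 groups) the highest or lowest line was compared with the rest of its group. In 3 of them the gap was above 0.71 of the range of the group. Chance gives such a gap in about 1 in 20 groups, so 3 of 99 is no more than chance gives. Calr in lentiviral OSKM replicate 5 was at 2286 CPM, against 3884 to 4374 CPM in the other lines of the group (gap 0.817 of the range). That line also had the highest summed fibroblast markers, 782 CPM, and Col4a1 at 62.6 CPM, and their part in the low Calr was not tested. Sdf2l1 in lentiviral SKM replicate 1 was at 74.0 CPM, against 92.4 to 99.0 CPM (gap 0.763). Slc7a11 in retroviral OSKM replicate 1 was at 52.3 CPM, against 0.116 to 0.832 CPM (gap 0.827). Summed fibroblast markers were 478 CPM in that line, and higher, 782 CPM, in lentiviral OSKM replicate 5, where Slc7a11 was far lower. Their part in the Slc7a11 value was not tested.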

How the results depend on the processing

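No alternative called any of the 33 genes except DESeq2, which called 2 in retroviral against lentiviral OSKM lines. Over all genes, lentiviral SKM against lentiviral OSKM gave 0 calls and 44 with DESeq2. Retroviral against lentiviral OSKM gave 39 calls, and 616 with DESeq2, 155 with all 15 libraries in the fit, 63 with voom, 24 without a filter on low counts, 3 with protein-coding genes only, 128 at a threshold of 0.1 and 5 without retroviral OSKM replicates 1 and 3 (an alternative chosen after seeing the data). Leaving out 1 line gave 15 (lentiviral OSKM replicate 1 or retroviral OSKM replicate 4) to 101 (retroviral OSKM replicate 5). The replicate numbers are not stated to pair the lines. Deviations of same-numbered lines correlated at −0.18 to 0.27, and 1 of 10 correlated best with its own number. Such correlations cannot tell whether same-numbered lines share a preparation. The fit with the replicate block gave 3 calls.

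In retroviral against lentiviral OSKM lines the ER median of the log2 fold changes ran from −0.64 to −0.19 over the fits that left out 1 line. With means over the members in place of medians, the ER level was 8.47 in lentiviral SKM and 8.48 in lentiviral OSKM lines, and the ER minus stress response difference 2.30 and 2.18. Without TMM factors r was 0.57 for Hspa5 with Hsp90b1 and 0.53 for Hspa5 with Lama1, and neither passed. Within the 10 lentiviral lines r was 0.57 for Hspa5 with Hsp90b1, 0.69 for Asns with Psat1 and 0.37 for Hspa5 with Lama1. Without retroviral OSKM replicates 1 and 3 it was 0.48 for Hspa5 with Lama1 and 0.62 for Hspa5 with Col4a1. The cause was not tested. The log2 fold changes of single genes changed sign in 71 of 660 values for lentiviral SKM and in 40 of 693 for retroviral against lentiviral OSKM. With 5 lines per group, the 95% intervals of 4 of the 14 stress response genes did not exclude a 2-fold difference between lentiviral SKM and lentiviral OSKM lines.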

Other observations

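Other stress programmes were described from lists chosen by role, in retroviral against lentiviral OSKM lines, with 0 genes passing in edgeR's test. Of all genes tested 0.252% passed and 52.3% had a log2 fold change above 0. Of 7 genes of the mitochondrial unfolded protein response 6 had a log2 fold change above 0 (median 0.36), among them the mitochondrial chaperones Hspd1 (0.17, SE 0.20), Hspe1 (0.56, SE 0.23) and Hspa9 (0.51, SE 0.27). In retroviral OSKM replicate 1 Hspa9 reached 1079.8 CPM, where the other retroviral lines held 413 to 686 CPM, and its value without replicate 1 was 0.25, with a list median of 0.20. Of 8 cytosolic heat shock genes 4 were above 0, with Hspa8 at 0.54 (SE 0.26), Hsp90aa1 at 0.65 (SE 0.27) and Dnajb1 at −0.11 (SE 0.19). Hsp90aa1 was at 0.30 without retroviral OSKM replicate 5. Of 8 targets of the oxidative stress factor Nrf2 5 were above 0, with Hmox1 at 0.55 (SE 0.33), Txnrd1 at −0.59 (SE 0.17) and G6pdx at 0.07 (SE 0.20), and Hmox1 was at 0.31 without retroviral OSKM replicate 1. Across the 15 lines the median rho of these lists with the 14 stress response genes was 0.31 for the mitochondrial genes, −0.10 for the heat shock genes and −0.05 for the Nrf2 targets.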
